A study of Homo sapiens with 4 samples.

Results

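Spliceosome and splicing regulator genes were examined under hypoxia in PLC/PRF/5, an established human line from a hepatocellular carcinoma, after lentiviral interference against USP22. The genes were those whose symbol starts with SNRP, SF3A, SF3B, PRPF, SRSF followed by a digit, or HNRNP. There were 53 such genes among the 12153 genes of the table, each taken as its RefSeq mRNA row with the highest summed count. The names cover 5 families: small nuclear ribonucleoprotein (snRNP) proteins, subunits of the splicing factors SF3A and SF3B, pre-mRNA processing factors, serine/arginine-rich (SR) proteins and heterogeneous nuclear ribonucleoproteins (hnRNPs). Of 71 protein-coding RefSeq symbols that fit these names, 52 had a row, and PRPF4B had a row under its older symbol. Well-known members such as SRSF1, SRSF3, HNRNPC and HNRNPK were not analysed here.

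The study had 2 USP22 knockdown libraries and 2 control libraries (labelled NC), all from cells kept in high-glucose medium and then at 1% oxygen and 5% carbon dioxide for 48 h. USP22 is the ubiquitin protease of the SAGA coactivator complex, which takes ubiquitin off histone H2B. No normoxic cells were among these 4 libraries, so every comparison is of knockdown with control within hypoxia. The labels do not give the hairpin sequence, the number of hairpins or clones, or whether replicates were separate cultures, and p-values measure only the spread between these libraries, which may be technical.

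The spliceosome removes introns from pre-mRNA. U1 snRNP binds the 5′ splice site and U2 snRNP, with SF3A and SF3B, the branch point, after which the U4/U6.U5 tri-snRNP joins and the complex is rearranged into its catalytic form. Each of these snRNPs other than U6 carries a ring of Sm proteins. SR proteins mostly promote the use of nearby exons, while many hnRNPs hold back exon inclusion and also act in mRNA stability and transport.

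Library totals were 15027209 and 17194929 counts in knockdown and 15621574 and 16536639 in control cells. USP22 had 359.5 and 447 CPM (counts scaled to a common library size) in the knockdown libraries, against 2937 and 2573 CPM in the control libraries. It fell by 2.77 ± 0.17 on the log2 scale (SE, n = 2 per group), with an adjusted p of 1.36e-06 by the quasi-likelihood test of edgeR. Of the 14 liver and liver cancer markers, 14 had a row. Their summed level was 46647 and 37000.4 CPM in knockdown and 30849.7 and 28773 CPM in control libraries. Of the 14, 6 rose, beside 9.08% of all tested genes. APOB had 27525 and 16630.3 CPM in knockdown and 11626 and 8796 CPM in control libraries. Without it the other 13 summed to 19122 and 20370.1 CPM in knockdown and 19224 and 19977 CPM in control libraries. That sum was chiefly TF, with 14063 and 15353 CPM in knockdown and 16362 and 17025 CPM in control libraries. Of the 13, AFP, FGA, FGB, FGG and KRT18 rose and the others did not pass. With APOB but without TF, the sum was 32584 and 21647 CPM in knockdown and 14488 and 11748 CPM in control libraries. Summed levels of markers of other cell types were far lower, and of these markers COL3A1 and PECAM1 rose. Single rows overlapped between the lists. The leukocyte marker LYZ had 359 and 194 CPM in knockdown and 274 and 325 CPM in control libraries. That was above the liver markers KRT8, KRT18, APOA1, SERPINA1, TTR, GPC3 and HNF4A. The row of HNF4A had 1.52 and 1.05 CPM in knockdown and 0.0631 and 0.309 CPM in control libraries. The 5 fibroblast genes with a row summed to 61.7 and 34.4 CPM in knockdown and 22.5 and 37.6 CPM in control cells, where COL1A2 had 0 counts in both knockdown libraries. The 3 endothelial genes summed to 29.6 and 23.3 CPM in knockdown and 17.9 and 11.6 CPM in control cells, and the 2 leukocyte genes, chiefly LYZ, to 384 and 222 CPM against 305 and 360.2 CPM. The part of such shifts in the results on splicing genes was not tested, and in bulk RNA fewer cells of a kind and less RNA per cell cannot be told apart.

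Splicing genes were mostly higher after USP22 knockdown, by small factors. All 53 were abundant enough to be tested. In that test, with Benjamini-Hochberg adjustment over all 12337 rows tested and a threshold of 0.05, 10 members rose, 1 fell and 42 stayed short of the threshold. The share that rose was 18.9%, against a background of 8.49% of all tested rows (9.08% with 1 row per gene), and the share that fell was 1.89%, against 10.2% (11.1%). In either direction the background was 18.7% (20.1%). The log2 fold change was positive for 46 members and negative for 7, with a median of 0.31, whereas the median of all tested rows was 0.0007 and 50.0% of them (49.8% with 1 row per gene) were positive. Both knockdown libraries lay above both control libraries for 36 members (67.9%, background 29.3%, or 29.8% with 1 row per gene) and below them for 3 (5.66%, background 30.3%, or 31.4%). The count that rose depended on single libraries, being 4 without control replicate 1, 11 without control replicate 2, 16 without knockdown replicate 1 and 7 without knockdown replicate 2. The count that fell was 0 without control replicate 1 and 0 without knockdown replicate 2.

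The members that rose included SNRPE, HNRNPA1, HNRNPA2B1, SF3B3, SNRPF, SNRPA, SNRPD1, HNRNPA0 and PRPF31, and HNRNPUL2 fell. Abundance and the number of transcripts per gene bear on what a row shows. Among members with a mean of at least 10 CPM, 9 of 42 rose and 1 fell, beside 775 and 748 of 5643 genes at that level. Members with 1 RefSeq mRNA accession numbered 22 and had a median of their mean levels of 226 CPM, while the 31 with 2 or more accessions had 30.4 CPM. The median log2 fold change of the first kind was 0.27, against −0.05 for all genes with 1 accession. Rows of genes with several accessions held few counts across this table, so a low row says little on how much of the gene is expressed.

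**Figure D1:**
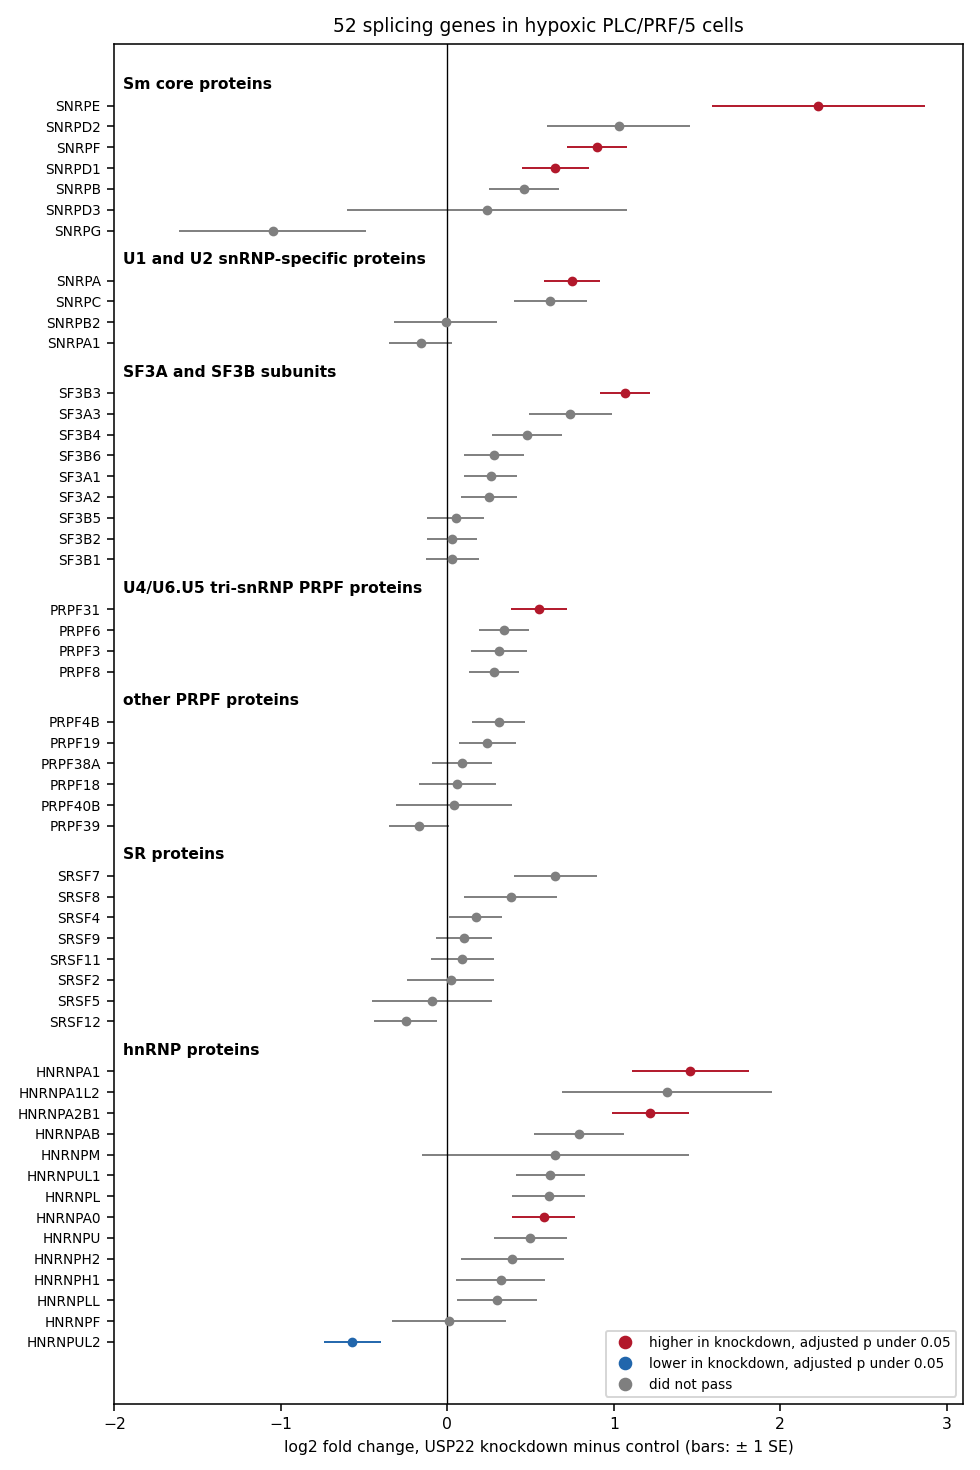
Log2 fold change of 52 splicing genes, USP22 knockdown minus control, by role, with bars of ± 1 SE from the fit to 2 libraries per group. Points in red (9) rose and the point in blue (1, HNRNPUL2) fell past an adjusted p of 0.05, and 45 of 52 lie right of 0.

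Promoters are shown for 3 members that rose and for the member that fell, to set their sequence beside the calls in these hypoxic cells. They are RefSeq sequences of build GRCh38.p14, 250 bases before to 50 after the gene start, 5′ to 3′ on the gene's strand, and capitals mark ACGTG and GCGTG, the core letters of the hypoxia response element, on either strand (read as CACGT and CACGC on the other). They lie at chr12:95858702-95859001 on the plus strand for SNRPF, chr19:40750953-40751252 on the plus strand for SNRPA, chr7:26200697-26200996 on the minus strand for HNRNPA2B1 and chr11:62727408-62727707 on the minus strand for HNRNPUL2.
SNRPF: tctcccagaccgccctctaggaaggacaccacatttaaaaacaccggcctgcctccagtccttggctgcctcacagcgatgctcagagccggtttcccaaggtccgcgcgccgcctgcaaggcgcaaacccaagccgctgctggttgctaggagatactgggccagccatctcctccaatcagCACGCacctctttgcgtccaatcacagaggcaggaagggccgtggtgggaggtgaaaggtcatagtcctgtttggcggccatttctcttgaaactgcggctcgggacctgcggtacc
SNRPA: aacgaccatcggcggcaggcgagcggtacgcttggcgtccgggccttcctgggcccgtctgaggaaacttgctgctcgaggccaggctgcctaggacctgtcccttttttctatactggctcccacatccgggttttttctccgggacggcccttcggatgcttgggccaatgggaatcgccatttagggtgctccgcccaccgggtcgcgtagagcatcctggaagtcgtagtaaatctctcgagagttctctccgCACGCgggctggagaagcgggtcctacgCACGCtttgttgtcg
HNRNPA2B1: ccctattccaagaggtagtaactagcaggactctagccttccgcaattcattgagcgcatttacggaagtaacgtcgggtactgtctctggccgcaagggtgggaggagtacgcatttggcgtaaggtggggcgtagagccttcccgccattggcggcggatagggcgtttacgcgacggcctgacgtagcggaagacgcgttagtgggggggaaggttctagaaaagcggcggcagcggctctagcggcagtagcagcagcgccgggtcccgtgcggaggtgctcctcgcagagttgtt
HNRNPUL2: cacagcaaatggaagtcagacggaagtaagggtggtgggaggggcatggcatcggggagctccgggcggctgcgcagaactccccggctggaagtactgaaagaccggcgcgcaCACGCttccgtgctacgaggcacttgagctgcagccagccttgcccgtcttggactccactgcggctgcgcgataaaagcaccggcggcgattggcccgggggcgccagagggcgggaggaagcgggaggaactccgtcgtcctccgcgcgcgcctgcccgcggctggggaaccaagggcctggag
The SNRPF and HNRNPUL2 windows each hold 1 such match, that of SNRPA holds 2 and that of HNRNPA2B1 holds 0. A promoter was found for 46 of the 53 members, and 36 of these (78.3%) hold ACGTG or GCGTG, beside 48.4% of all 27305 promoters and 55.9% of the 15843 promoters of protein-coding genes. The E-box CACGTG, which overlaps ACGTG, is in 8.70% of member promoters and 8.88% of those of protein-coding genes. CCGGAA, a form of the core bound by ETS factors, is in 50.0% of member promoters and 22.9% of those of protein-coding genes, and GGGCGG, the GC box, in 63.0% and 58.5%. These shares describe letters in a window and say nothing on binding. They were not matched for base composition, and the calls compare knockdown with control, both in hypoxia. Of the 6 members that rose and had a promoter, 5 hold ACGTG or GCGTG and 1 holds CCGGAA.

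The Sm core proteins form the ring on which most snRNPs are built. Of the 7 genes 3 rose (42.9%, beside 9.08% of all tested genes) and none of the others passed. The median log2 fold change was 0.65. SNRPF, the protein SmF, had 118 and 117 CPM in the knockdown libraries and 58.1 and 67.2 CPM in the control libraries. Its log2 fold change was 0.90 ± 0.18 (SE, adjusted p = 0.00344), a 1.87-fold rise, and the call was kept in all 11 alternative analyses. SNRPD1, the protein SmD1, had 67.7 and 78.2 CPM in knockdown and 41.3 and 51.4 CPM in control cells (0.65 ± 0.20, adjusted p = 0.0348). Its groups did not overlap, but it did not pass when control replicate 1 (adjusted p = 0.294) or knockdown replicate 2 (0.0869) was left out, and its adjusted p ran between 0.00119 and 0.294 over the alternatives.

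SNRPE, the protein SmE, showed the largest log2 fold change of the 53 members, from the smallest counts among those that rose. Its row is an isoform, NM_001304464.1, of a gene with 4 RefSeq mRNA accessions, and it held 41 and 45 counts in knockdown and 12 and 6 counts in control libraries. The log2 fold change was 2.23 ± 0.64 (adjusted p = 0.0272), and it was 2.82 without control replicate 1. It did not pass when control replicate 2 (1.82, adjusted p = 0.0792), knockdown replicate 1 (0.0814) or knockdown replicate 2 (0.0949) was left out, and its adjusted p ran between 0.00700 and 0.0949. GENCODE lists 9 pseudogenes named after SNRPE, 4 after SNRPF and 20 after SNRPG, whose reads may have been shared.

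The other Sm protein genes did not pass. SNRPB, which encodes SmB and SmB′, had 58.2 and 74.2 CPM in knockdown and 40.8 and 55.5 CPM in control cells (adjusted p = 0.162). SNRPD2 had 57 and 76 counts in knockdown and 34 and 30 counts in control libraries (1.03 ± 0.43, adjusted p = 0.117). Both had their knockdown libraries above their control libraries. SNRPD3, with 14 and 11 counts in knockdown and 16 and 5 in control libraries, and SNRPG, with 33 and 19 in knockdown and 76 and 32 in control libraries, overlapped between the groups. SNRPG had the lowest log2 fold change of all members (−1.05 ± 0.56, adjusted p = 0.221). The rows of SNRPD2, SNRPD3, SNRPE and SNRPG were each under 5 CPM in every library.

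Of 4 genes for proteins specific to U1 or U2 snRNP, 1 rose (25.0%) and 0 fell, beside 9.08% and 11.1% of all tested genes. SNRPA, a U1 protein that binds a stem-loop of U1 RNA, had 183 and 221 CPM in knockdown and 113 and 127 CPM in control cells. This was a 1.68-fold rise (log2 fold change 0.75 ± 0.17, adjusted p = 0.00865). The rise did not pass when control replicate 1 was left out (0.67, adjusted p = 0.0839), and its adjusted p ran between 4.67e-06 and 0.0839. SNRPC, which helps U1 hold the 5′ splice site, had 47.9 and 50.1 CPM in knockdown and 27.0 and 36.8 CPM in control cells and just missed the threshold (0.62 ± 0.22, adjusted p = 0.0633). GENCODE lists 18 pseudogenes named after it. SNRPA1 and SNRPB2, which bind each other on U2 RNA, gave overlapping groups. SNRPA1 had 66.4 and 77.7 CPM in knockdown and 74.2 and 86.7 CPM in control cells (−0.16 ± 0.19, adjusted p = 0.611). SNRPB2 had 7.07 and 9.03 CPM in knockdown and 7.64 and 8.60 CPM in control cells (adjusted p = 0.988).

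SF3A and SF3B are the complexes with which U2 snRNP grips the branch point. Of their 9 subunit genes 1 passed, upwards, a share of 11.1% near the 9.08% of all tested genes. All 9 log2 fold changes were positive, beside 49.8% of all tested genes, with a median of 0.26. SF3B3, a large scaffold subunit of SF3B, had 456 and 443 CPM in the knockdown libraries and 216 and 211 CPM in the control libraries. The libraries of each group lay close together and far from the other group. The log2 fold change was 1.07 ± 0.15 (adjusted p = 0.000457), a 2.11-fold rise (1.89 to 2.34 within 1 SE), and it kept its call in all 11 alternatives with values between 1.06 and 1.10. The authors' deposited table gives 1.09 for it, with a q-value of 3.45e-19.

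SF3B3 and SF3B5 are also subunits of SAGA, the complex that holds USP22. SF3B5 had 253 and 327 CPM in knockdown and 287 and 274 CPM in control cells (0.05 ± 0.17, adjusted p = 0.885), so the groups overlapped. SF3B1, which clamps the branch point duplex and is mutated in several cancers, had 975 and 859 CPM in knockdown and 1004 and 791 CPM in control cells (0.03 ± 0.16, adjusted p = 0.923). SF3B2 had 959 and 876 CPM in knockdown and 919.5 and 882 CPM in control cells (0.03 ± 0.15, adjusted p = 0.927). These were the most abundant rows of the family by CPM, a measure that is not scaled to length. On CPM per kilobase of transcript SF3B5 led with 412, followed by SF3B2 with 313, and SF3B3 with its long transcript had 34.1.

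The remaining subunits did not pass, and each had its knockdown libraries above its control libraries. Of the 9 subunit genes 66.7% lay so, beside 29.8% of all tested genes. SF3A3, the subunit that contacts the U2 RNA, had 32.5 and 29.8 CPM in knockdown and 15.2 and 22.1 CPM in control cells (0.74 ± 0.25, adjusted p = 0.0536). SF3B4, an RNA-binding subunit, had 251 and 320.2 CPM in knockdown and 163 and 247 CPM in control cells (0.48 ± 0.21, adjusted p = 0.128). SF3A1, SF3A2 and SF3B6, the p14 protein beside the branch point adenosine, had log2 fold changes of 0.26, 0.25 and 0.28.

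The 4 pre-mRNA processing factors of the tri-snRNP had log2 fold changes between 0.28 and 0.55. Each had both knockdown libraries above both control libraries, beside 29.8% of all tested genes. PRPF31, which bridges U4/U6 to U5 and is mutated in inherited retinal degeneration, rose 1.47-fold, with 162 and 193 CPM in knockdown and 114 and 129 CPM in control cells (log2 fold change 0.55 ± 0.17, adjusted p = 0.0406). It did not pass when control replicate 1 (adjusted p = 0.277), control replicate 2 (0.0883) or knockdown replicate 2 (0.148) was left out, and its adjusted p ran between 0.00143 and 0.277. PRPF8, the protein at the catalytic centre, had 1198 and 1165 CPM in knockdown and 929 and 1019 CPM in control cells, the highest mean CPM over the 4 libraries of the 53 rows (0.28 ± 0.15, adjusted p = 0.210). PRPF6 had 344 and 367 CPM in knockdown and 274 and 288 CPM in control cells (0.34 ± 0.15, adjusted p = 0.152), and PRPF3 had 115 and 115 CPM in knockdown and 87.6 and 97.4 CPM in control cells (0.31 ± 0.17, adjusted p = 0.234).

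The 7 other pre-mRNA processing factors had a median log2 fold change of 0.09. PRPF40B had 6.81 and 7.51 CPM in knockdown and 8.97 and 4.95 CPM in control cells (0.04 ± 0.35, adjusted p = 0.954), so its groups overlapped. PRPF4B, a kinase of splicing factors, had 248 and 272 CPM in knockdown and 221 and 198 CPM in control cells (0.31 ± 0.16, adjusted p = 0.202). PRPF19, a ubiquitin ligase that gives its name to the PRP19 complex, had 245 and 313 CPM in knockdown and 228 and 245 CPM in control cells (0.24 ± 0.17, adjusted p = 0.374). PRPF38A, PRPF18, which acts in the second catalytic step, and PRPF39 had log2 fold changes of 0.09, 0.06 and −0.17.

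No SR protein gene passed the threshold in either direction. Of the 8, 0 rose and 0 fell by edgeR, beside 9.08% and 11.1% of all tested genes. In that test 1 of the 8 had an unadjusted p under 0.05, beside 3607 of 10777 tested genes. The authors' deposited table has a q-value under 0.05 for the same gene, SRSF7. SRSF7 had 37.3 and 53.5 CPM in knockdown and 23.4 and 34.4 CPM in control cells (0.65 ± 0.25, adjusted p = 0.0916), with groups that did not overlap. The most abundant rows were SRSF9, with 289 and 361 CPM in knockdown and 277 and 329.9 CPM in control cells (0.10 ± 0.17, adjusted p = 0.749), and SRSF4, with 212 and 246 CPM in knockdown and 209.9 and 197 CPM in control cells (0.17 ± 0.16, adjusted p = 0.514). SRSF2, which is recurrently mutated in myeloid neoplasms, had 34.1 and 63.2 CPM in the knockdown libraries, which lay on either side of the control values of 48.2 and 47.6 CPM. SRSF12 had both knockdown libraries below both control libraries, at 44.1 and 41.9 CPM against 50.6 and 51.8 CPM (−0.25 ± 0.19, adjusted p = 0.408).

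Among 14 hnRNP genes 3 rose (21.4%) and 1 fell (7.14%), beside 9.08% and 11.1% of all tested genes. Their median log2 fold change was 0.60. Both knockdown libraries lay above both control libraries for 12 of them (85.7%), beside 29.8% of all tested genes. HNRNPA1 and HNRNPA2B1 encode abundant nuclear RNA-binding proteins that often repress exon inclusion. Their mRNA rows gave the largest rises among the hnRNP genes past the threshold. HNRNPA1 had 23.5 and 30.0 CPM in knockdown and 5.68 and 13.8 CPM in control cells, a 2.75-fold rise (log2 fold change 1.46 ± 0.35, adjusted p = 0.0111). The control libraries differed from each other by more than the knockdown libraries did, and the log2 fold change was 2.25 without control replicate 2 and 0.96 without control replicate 1, where it did not pass (adjusted p = 0.0605). Over the alternatives the adjusted p ran between 1.82e-08 and 0.0605.

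HNRNPA2B1 had 40.9 and 46.8 CPM in knockdown and 16.1 and 21.6 CPM in control cells, a 2.32-fold rise (1.22 ± 0.23, adjusted p = 0.00290) that kept its call in all 11 alternatives. Both rows carry limits. GENCODE lists 74 pseudogenes named after HNRNPA1, and the retrocopy HNRNPA1L2, with 45 and 30 counts in knockdown and 20 and 10 counts in control libraries (1.32 ± 0.63, adjusted p = 0.170), cannot be told apart from it with certainty. HNRNPA1 has 2 RefSeq mRNA accessions and HNRNPA2B1 has 14, and of each gene 1 accession has a row. The rises are of those rows and not of all mRNA of the genes.

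HNRNPA0, a single-exon relative, had 439.6 and 564 CPM in knockdown and 282 and 389 CPM in control cells (0.58 ± 0.19, adjusted p = 0.0474). It did not pass when control replicate 1 (0.37, adjusted p = 0.381) or knockdown replicate 2 (0.40, adjusted p = 0.129) was left out, and its adjusted p ran between 5.96e-05 and 0.381. HNRNPUL2, an hnRNP U-like protein, was the 1 member that fell. It had 112 and 98.5 CPM in the knockdown libraries and 147 and 164 CPM in the control libraries (−0.57 ± 0.17, adjusted p = 0.0337). The fall did not pass when control replicate 1 (adjusted p = 0.10), control replicate 2 (0.255) or knockdown replicate 2 (0.111) was left out, and its adjusted p ran between 0.00117 and 0.255. Its relatives HNRNPU and HNRNPUL1 had positive log2 fold changes that did not pass. HNRNPU, a scaffold protein of nuclear RNA, had 33.1 and 38.2 CPM in knockdown and 22.9 and 27.5 CPM in control cells (0.50 ± 0.22, adjusted p = 0.137), and HNRNPUL1 had 42.9 and 55.7 CPM in knockdown and 30.2 and 34.1 CPM in control cells (0.62 ± 0.21, adjusted p = 0.0623).

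HNRNPAB and HNRNPL also had log2 fold changes above 0.5 without passing. HNRNPAB had 56.5 and 93.6 CPM in knockdown and 32.6 and 54.2 CPM in control cells (0.79 ± 0.27, adjusted p = 0.0606). HNRNPL, which binds CA repeats, had 37.0 and 39.7 CPM in knockdown and 28.3 and 22.0 CPM in control cells (0.61 ± 0.22, adjusted p = 0.0745), and its paralogue HNRNPLL had a log2 fold change of 0.30. The G-tract binding proteins HNRNPF, HNRNPH1 and HNRNPH2 had 0.01, 0.32 and 0.39. HNRNPM held 13 and 14 counts in knockdown and 6 and 11 counts in control libraries, and its log2 fold change of 0.65 had an SE of 0.80.

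**Figure D2:**
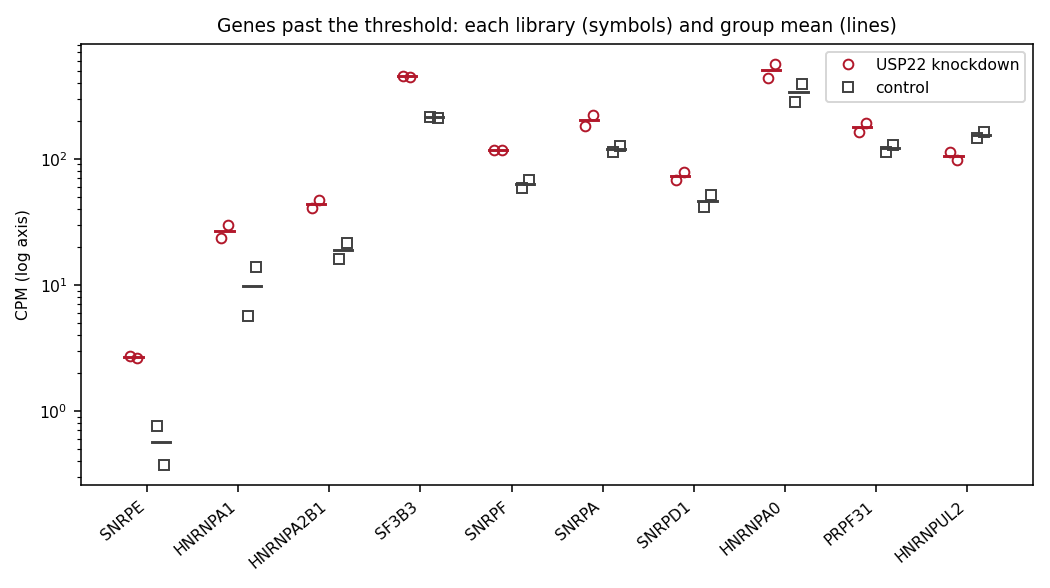
Level of 10 splicing genes past the threshold in each library, in CPM on a log axis, with knockdown as circles, control as squares and group means of 2 libraries as lines. Knockdown and control do not overlap for any of the 10, which were chosen because they passed the test on these same libraries. HNRNPUL2 is the 1 gene with knockdown below control.

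In each library the members were also set against their control mean, as log2 of CPM plus 0.5. The median over the 53 members was 0.29 and 0.38 in the 2 knockdown libraries, against −0.07 and 0.06 in the control libraries. The summed level was 8703 and 9079 CPM in knockdown and 7212 and 7394 CPM in control libraries. By group, the Sm proteins (0.54 and 0.75) and the hnRNPs (0.39 and 0.62) had the highest medians in the knockdown libraries, against 0.08 and −0.09 and against −0.15 and 0.14 in the control libraries. The Sm median is over 7 rows, of which SNRPD2, SNRPD3, SNRPE and SNRPG were under 5 CPM in every library. The SR proteins (−0.06 and 0.26) had a knockdown library on each side of the control values (−0.01 and 0.01). The group medians were not tested against each other.

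**Figure D3:**
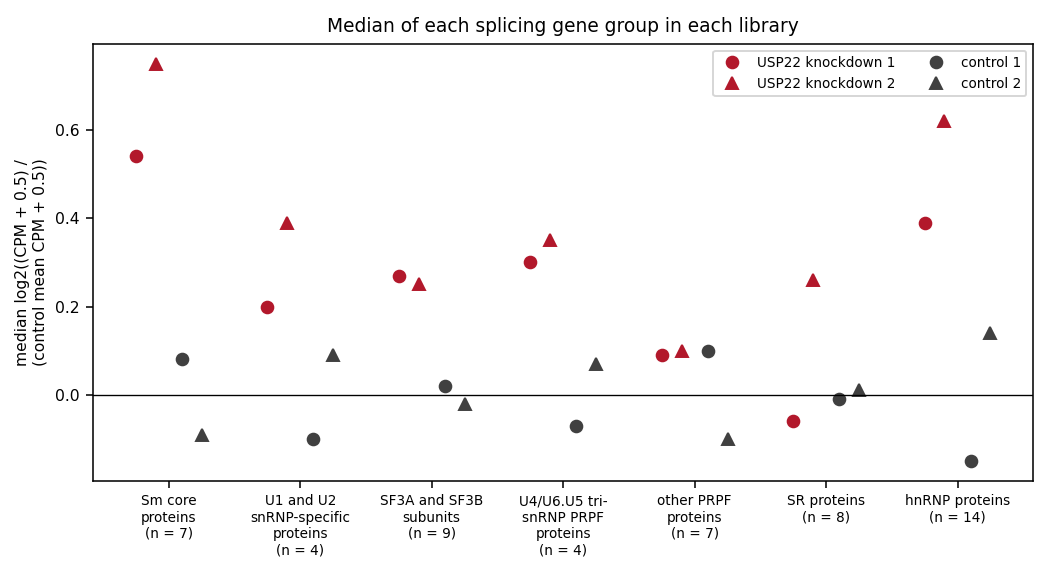
Median, over the genes of each group, of log2 of a library's CPM plus 0.5 over the control mean plus 0.5, with knockdown libraries in red left of control libraries in black and n the genes per group. Both knockdown medians lie above both control medians for the Sm, U1 and U2, SF3 and tri-snRNP groups and the hnRNPs, and not for the other PRPF proteins or the SR proteins.

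A further 6 members had an adjusted p between 0.05 and 0.10, and all 6 had positive log2 fold changes: SF3A3, HNRNPAB, HNRNPUL1, SNRPC, HNRNPL and SRSF7. No share of all tested genes in that range is given here, so the 6 are only listed and add no result. Of the 53 members, 18 had a q-value under 0.05 with a positive log2 fold change in the authors' deposited table and 1 with a negative one, beside 13.4% and 14.1% of all tested genes. The 11 members called here were among them. The other 8 were SF3A3, SF3B4, PRPF6, PRPF8, SNRPC, SRSF7, HNRNPL and HNRNPUL1. HNRNPAB was not among them, with a q-value of 0.281. The table holds 12 more rows of 7 member genes, of which 9 could be tested in edgeR and had adjusted p-values from 0.264 to 0.960. The second SF3B1 row, an isoform with 513 and 422 counts in knockdown and 535 and 361 in control libraries, had a log2 fold change of 0.06 ± 0.26. The 2 lesser HNRNPUL1 rows had −0.61 and −0.68, opposite in sign to the row taken, with 14 to 40 counts a library.

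Splicing genes outside the 5 families were also examined. Of 150 genes on 8 lists, 120 had a row outside the members and 113 could be tested, of which 20 rose and 3 fell, and the median log2 fold change was 0.29. Of the 120, 16.7% rose and 2.50% fell, beside the backgrounds of 8.49% and 10.2% of all tested rows (9.08% and 11.1% with 1 row per gene). Of early recognition factors (6.67%), the exon junction complex (8.33%) and SR kinases and regulators (7.14%, with 14.3% that fell), 1 gene each rose. These shares are over genes with a row and lie near the background of tested rows. Lists this small cannot place them below it. On the remaining lists 14.3% to 28.6% rose. Without control replicate 1, 6 rose and 0 fell, and without control replicate 2, 12 rose. The lists were chosen with earlier results of these data known.

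Among the 7 snRNP genes named SNRNP, 2 rose and 0 fell, beside 9.08% and 11.1% of all tested genes. SNRNP25, of the minor U11/U12 particle, rose 2.86-fold, with 32.3 and 37.6 CPM in knockdown and 10.2 and 14.3 CPM in control cells (adjusted p = 0.00125). SNRNP200, the helicase that unwinds U4/U6, had 1711 and 1588 CPM in knockdown and 1129.5 and 1158 CPM in control cells (0.53 ± 0.14, adjusted p = 0.0212). SNRNP200 did not pass when control replicate 1 (adjusted p = 0.145) or control replicate 2 (0.0879) was left out, and its adjusted p ran between 0.000126 and 0.145. The other 5 did not pass: SNRNP27 of the tri-snRNP (−0.88 ± 0.31, adjusted p = 0.0631), SNRNP40 of U5 (0.43 ± 0.17, 0.105), SNRNP35 (1.19 ± 0.57, 0.173) and SNRNP48 (−0.21 ± 0.21, 0.542) of U11/U12, and SNRNP70 of U1 (0.41 ± 0.20, 0.179). SNRNP27 had both knockdown libraries below both control libraries, at 7.07 and 5.18 CPM against 11.2 and 11.3 CPM. Of 13 tested tri-snRNP partners 4 rose and 0 fell, and the 2 with the largest change were RBM42 (0.94 ± 0.21, adjusted p = 0.00767) and LSM6, a protein of the U6 ring (0.82 ± 0.25, adjusted p = 0.0358). LSM6 did not pass when control replicate 1 (adjusted p = 0.222), control replicate 2 (0.0636) or knockdown replicate 2 (0.0695) was left out, within a range of 0.00557 to 0.222. LSM2 and LSM3 of the same ring, named after their values were seen, also rose (0.80 and 0.62), but did not pass when control replicate 1 was left out (adjusted p = 0.0778, within 7.00e-06 to 0.0778, for LSM2 and 0.412, within 0.00125 to 0.412, for LSM3).

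Of 15 early recognition factors 1 rose and 0 fell, and their median log2 fold change was −0.0019. That gene was the helicase DHX15 (0.60 ± 0.15, adjusted p = 0.0154). DHX15 did not pass when control replicate 1 (adjusted p = 0.119) or control replicate 2 (0.0869) was left out, within a range of 0.000114 to 0.119. Of 21 tested factors of the PRP19 complex and the catalytic steps, 5 rose and 1 fell, beside 9.08% and 11.1% of all tested genes. AQR, an intron-binding helicase, had 162 and 129 CPM in knockdown and 88.3 and 74.2 CPM in control cells (0.84 ± 0.19, adjusted p = 0.00683), but did not pass when control replicate 2 was left out (adjusted p = 0.0584, within 8.72e-07 to 0.0584). The row of the helicase DHX8 held 84 and 42 counts in knockdown and 15 and 24 in control libraries (1.71 ± 0.54, adjusted p = 0.0437). It did not pass when control replicate 1 (adjusted p = 0.0918) or knockdown replicate 1 (1.04, adjusted p = 0.426) was left out, nor in limma-voom (0.0776), within a range of 0.00477 to 0.426. BUD31 fell to 82.0 and 78.9 CPM in knockdown, against 139 and 126 CPM in control cells (−0.72 ± 0.17, adjusted p = 0.0103), but did not pass when control replicate 1 was left out (adjusted p = 0.107, within 3.85e-05 to 0.107).

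In the exon junction complex list 1 of 12 rose and 0 fell, beside 9.08% and 11.1% of all tested genes. ALYREF, an mRNA export adaptor, had 176 and 221 CPM in knockdown and 62.3 and 81.7 CPM in control cells, a 2.76-fold rise (1.46 ± 0.19, adjusted p = 0.000261). Of 13 tested SR protein kinases and SR-related regulators, 1 rose and 2 fell. TRA2B rose (0.75 ± 0.21, adjusted p = 0.0265), the kinase CLK3 fell to 4.69 and 6.46 CPM in knockdown, against 12.4 and 11.5 CPM in control cells (−1.09 ± 0.31, adjusted p = 0.0260), and the row of SON fell (−0.63 ± 0.19, adjusted p = 0.0309). TRA2B did not pass when control replicate 1 (adjusted p = 0.240) or knockdown replicate 2 (0.0764) was left out, within 9.24e-05 to 0.240. CLK3 did not pass when control replicate 1 (adjusted p = 0.0691) or knockdown replicate 1 (0.113) was left out, within 0.00256 to 0.113. SON did not pass when any 1 of the 4 libraries was left out (adjusted p from 0.0561 to 0.168) nor with its rows summed (−0.41, adjusted p = 0.129), within 0.00241 to 0.168.

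Of 18 tested RNA-binding regulators of alternative splicing 3 rose and 0 fell, beside 9.08% and 11.1% of all tested genes. They were TAF15 (0.74 ± 0.22, adjusted p = 0.0344), the epithelial regulator ESRP2 (0.56 ± 0.17, adjusted p = 0.0343) and, named after its values were seen, KHSRP (0.55 ± 0.17, adjusted p = 0.0420). KHSRP did not pass when control replicate 1 (adjusted p = 0.371) or knockdown replicate 2 (0.0849) was left out, within 0.000216 to 0.371. TAF15 did not pass when control replicate 1 (adjusted p = 0.221), control replicate 2 (0.0801) or knockdown replicate 1 (0.0614) was left out, within 0.00389 to 0.221. ESRP2 did not pass when control replicate 1 (adjusted p = 0.182), control replicate 2 (0.109) or knockdown replicate 2 (0.163) was left out, within 0.000583 to 0.182. PTBP1, a repressor of many exons, did not pass (0.20 ± 0.20, adjusted p = 0.531). Of 14 tested genes of snRNP assembly 3 rose and 0 fell. GEMIN6, of the SMN complex that loads the Sm ring, had 39.1 and 39.3 CPM in knockdown and 17.1 and 20.6 CPM in control cells (1.06 ± 0.22, adjusted p = 0.00531), and GEMIN4 of the same complex had 0.75 ± 0.20 (adjusted p = 0.0190), but did not pass when control replicate 1 was left out (0.195, within 1.36e-05 to 0.195). PHAX, which exports U RNAs from the nucleus and was named after its values were seen, rose by 0.53 ± 0.17 (adjusted p = 0.0449), but did not pass when control replicate 1 (0.235), control replicate 2 (0.194) or knockdown replicate 2 (0.0849) was left out, within 0.00452 to 0.235.

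**Figure D4:**
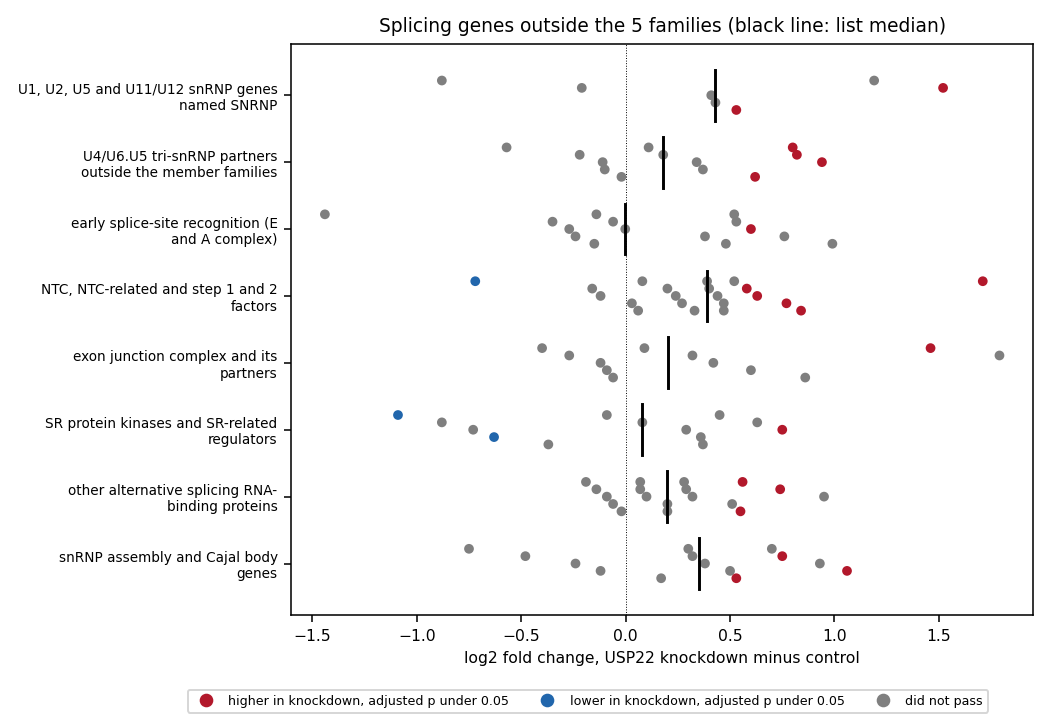
Log2 fold change, USP22 knockdown minus control, of the 113 tested splicing genes outside the 5 families on 8 lists, with list medians as black lines. In red are the 20 that rose and in blue the 3 that fell, and list medians run from about 0 for early splice-site recognition to 0.43 for the SNRNP genes.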

How the data were processed

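The authors deposited raw counts per RefSeq mRNA accession for 4 libraries (14540 rows), with their own log2 fold change per row, its p-value and its q-value. The tool behind these is not given in the sources. Named in the submitters' processing notes are HTSeq, HISAT2 2.1.0, bcl2fastq and the build hg19. Per the labels' protocols, mRNA libraries were made with NEBNext Ultra, a kit that does not mark strand, so reads of overlapping genes cannot be told apart. No source used here gives how reads shared by isoforms were counted.

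All rows were fitted with edgeR 4.0.16 in R 4.3.3 (filterByExpr with a minimum count of 10, TMM factors of 0.979 to 1.01, quasi-likelihood test, no covariate), which left 12337 rows. Benjamini-Hochberg adjustment ran over all of them, with a threshold of 0.05. The common biological coefficient of variation was 22.1%. The procedure was tested on simulated data. CPM are counts over the TMM-scaled library size, and each SE is the absolute log2 fold change over the square root of F. The 2 libraries of a group differed beyond counting noise (chi-square per degree of freedom 37.6 in knockdown and 19.7 in control). Alternatives included DESeq2 1.42.0 and limma 3.58.1. The members and lists were chosen with earlier results of these data known. Named were USP22, each member past the threshold, the 2 rows of highest mean CPM per family and, in each outside list, the 2 called genes that changed most each way. Other members are described because they belong to the families. The values of 1 called member are not reported here, and it is counted in the totals and group medians. RefSeq accessions matched 98.5% of rows, and GENCODE release 29 gave transcript lengths for 52 members and pseudogene names.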

Additional observations from a re-analysis of the deposited data

How the results depend on the processing

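The medians and USP22 kept their sign in all 11 alternatives, and DESeq2 size factors, no filter, a filter of 5 CPM in 2 libraries, DESeq2, limma-voom and summed rows moved no count of calls by over 1.5 times. Members that rose numbered 10 in the main analysis, 4 at an adjusted p under 0.01 (0 fell) and 4 to 16 when a library was left out (0 to 1 fell). Genes of the outside lists that rose numbered 20 and then 6 to 27, and those that fell 3 and then 0 to 3. The members' median of 0.31 was 0.30 to 0.42 and that of the outside lists, 0.29, was 0.18 to 0.39 when a library was left out. With the replicate number as a block, 19 members and 33 outside genes rose and 1 and 5 fell. The labels do not say that same-numbered libraries are paired. Their deviations correlated with r = 0.136 over 12337 rows, which does not settle it with 2 pairs. Among genes that did not pass, SF3B1 ran from −0.11 to 0.22 (also −0.03), SF3B2 from −0.0014 to 0.10 and SRSF9 from −0.06 (also −0.02) to 0.29 without a library. Of the 11 called members, SF3B3, HNRNPA2B1 and SNRPF (3) kept the call throughout and 8 lost it without some library. Of the 16 genes named by rule on the outside lists 4 kept it, and 0 of the 4 named after their values were seen. SNRPE and DHX8 were too low for the 5 CPM filter. Fits without a library leave 1 in an arm, which is assumed to vary like the other group, and the causes of these changes were not tested. With 2 libraries per group and a coefficient of variation of 22.1%, rows of few counts, such as SNRPD3 and HNRNPM, had SEs of 0.84 and 0.80.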
